A study of Mus musculus with 4 samples.

Results

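CD51+;CD200+ cells from the posterior frontal (PF) suture were compared with the same cells from the sagittal (SAG) suture, the neighbouring joint of the skull midline. The PF suture fuses early in mouse life and the SAG suture stays patent. The comparison took every gene symbol with 1 or more FPKM (sequenced fragments expressed per length of transcript and per size of library) in either library, which was 13490 of the 23946 symbols listed, and 12819 of these were protein-coding genes. All 4 libraries of the series, PF, SAG, coronal (COR) and tibial growth plate (GP), came from wild-type CD-1 mice at postnatal day 3, when every suture is still open. The tissue taken from pooled animals was the whole suture complex, which held the bone fronts, the mesenchyme between them, the dura mater beneath and the periosteum above. Cells were double-sorted by FACS as positive for CD51 and CD200 and negative for the blood cell antigens CD45 and Ter119, for Tie2, for both forms of Thy1, and for 6C3 and CD105. Each tissue gave 1 library, so there is no replicate error, no test was made, and a difference between sutures cannot be told apart from a difference between their pools of mice, sorts or libraries. Ratios are PF against SAG on the scale of log2(FPKM + 1), which understates the difference for genes of low level, and a gene was counted as different at 3-fold or more.

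A cranial suture is a fibrous joint in which mesenchymal progenitors supply osteoblasts to the edges of the adjoining bones. Osteoblasts lay down a type I collagen matrix and mineralize it, whereas chondrocytes lay down type II collagen and aggregating proteoglycans. The PF suture closes through a cartilage intermediate, the process called endochondral ossification that also lengthens limb bones at the growth plate. CD51 is the alpha V integrin (gene Itgav). It was combined with the surface glycoprotein CD200 to enrich skeletal stem and progenitor cells.

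Of the 12819 protein-coding genes, 1918 (15%) differed by 3-fold or more. PF-CD51+;CD200+ cells were higher at 783 of them (6.11% of the genes tested) and SAG-CD51+;CD200+ cells at 1135 (8.85%). Relative to Gapdh, a glycolytic enzyme often used as a reference, the split turned to 1480 higher in PF and 763 higher in SAG. Among the 10298 genes with 1 FPKM or more in both libraries, 462 (4.49%) were higher in PF and 438 (4.25%) in SAG. Most genes lay close to the line of equal expression: 66.5% were within 2-fold, and the median log2 ratio was 0.016. The genes higher in PF were more often abundant, since 187 of the 783 reached 50 FPKM in PF, against 118 of the 1135 in SAG. The genes higher in SAG were more often near the floor of the other library, since 697 of the 1135 were below 1 FPKM in PF and 120 were listed at 0 there. In the other direction 321 of the 783 were below 1 FPKM in SAG and 109 were listed at 0. At the edge of the expression filter, Opn1mw was just inside at 1.003 FPKM in PF and B3galt2 just outside at 0.9996 FPKM in SAG.

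**Figure D1:**
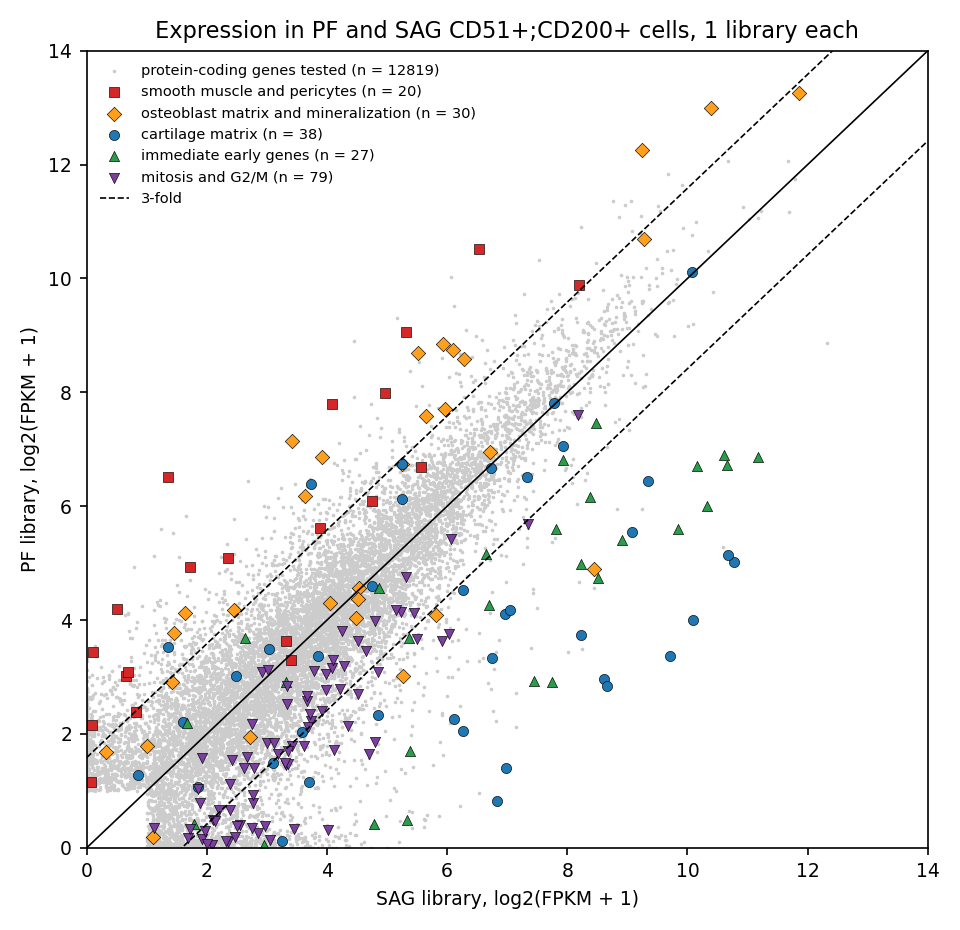
Each point is a protein-coding gene, with its level in SAG on the x axis and in PF on the y axis, both as log2(FPKM + 1) from 1 library; dashed lines mark 3-fold and coloured symbols mark 5 gene lists. Smooth muscle and most osteoblast matrix genes lie above the diagonal, and immediate early, mitosis and most cartilage matrix genes lie below it.

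The depth of the libraries was read from the spacing of low values. One fragment was worth 0.0588 FPKM times kilobase in PF and 0.0257 in SAG, so if FPKM was scaled in proportion to fragments, PF held 43.7% of the depth of SAG and its low values are coarser. Transcript base composition also moved with the ratio. From the fifth of genes with the lowest GC content to the fifth with the highest, the median log2 ratio rose from -0.41 to 0.51, and the share of genes higher in PF from 5.17% to 10.8%. The genes higher in PF had a median GC content of 53.6% and those higher in SAG 49.2%. Counts after correction for GC content are therefore given below wherever the correction moved a list's count of 3 or more genes by more than 1.5 times. Its part in any single gene's ratio was not tested. Itgav was at 12.7 FPKM in PF and 6.203 in SAG, and Cd200 at 23.5 and 48.1 FPKM. The SAG library also held genes of the choroid plexus and pineal gland, tissues outside the skeleton, at levels given below.

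**Figure D2:**
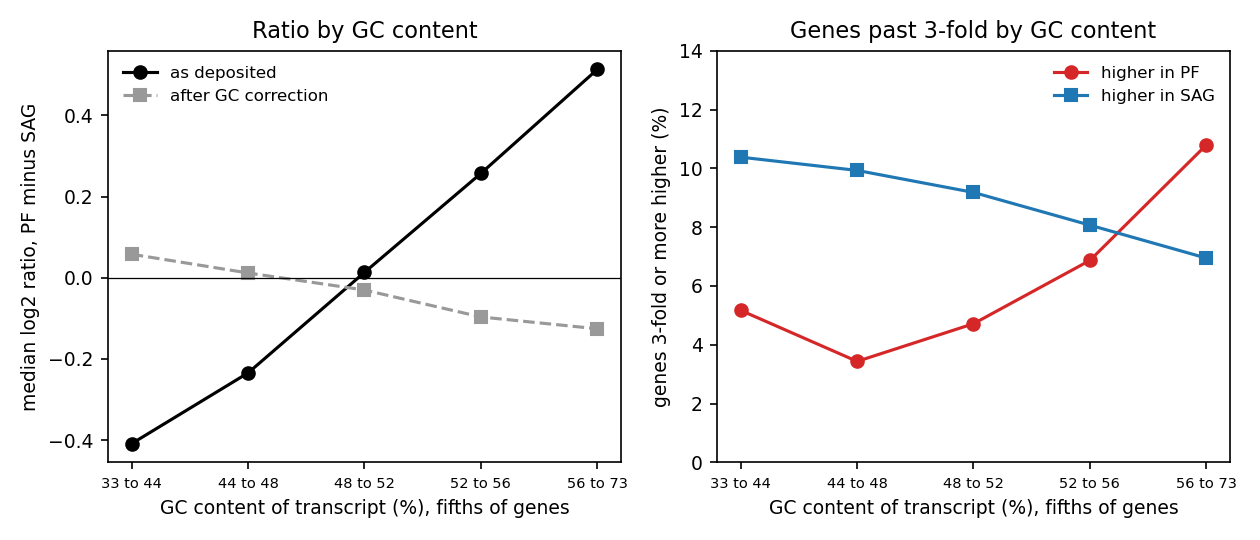
Protein-coding genes are divided into 5 equal groups by the GC content of their longest coding transcript. The left panel gives the median log2 ratio of PF to SAG, as deposited and after a smooth GC correction, and the right panel the percentage of genes 3-fold or more higher in each library. The uncorrected median rises from -0.41 to 0.51.

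The largest ratios in favour of PF belonged to contractile, secreted and vascular genes. Actg2, the smooth muscle gamma actin (chr6:83462899-83486259, mm9), was at 90.3 FPKM in PF and 1.56 in SAG, a log2 ratio of 5.16. Igfbp3, which binds insulin-like growth factors, was at 476 FPKM in PF and 20.8 in SAG. Gja4, the gap junction protein connexin 37, was at 47.6 and 1.35 FPKM, and Ppp1r14a, an inhibitor of myosin phosphatase, at 56.1 and 2.16 FPKM. The next in size were Esam, an endothelial adhesion molecule, at 29.5 FPKM in PF and 0.727 in SAG, and the secreted glutathione peroxidase Gpx3, at 633 and 35.1 FPKM. Tbxa2r, the thromboxane receptor (45.2 and 1.70 FPKM), and the complement gene Cfb (33.8 and 1.16 FPKM) followed. Sfrp2, a secreted Wnt antagonist, reached 1041 FPKM in PF against 66.2 in SAG, 99.8 in COR and 133 in GP, so that PF stood above all other libraries for this gene. The remaining members of the 12 largest were Myl9, Egfl8 and Acta2, with log2 ratios of 3.99, 3.75 and 3.74.

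Of the 12 largest ratios in favour of SAG, 8 were cartilage genes. Matn1, which encodes matrilin 1 of the cartilage matrix (chr4:130500300-130511390, mm9), was at 838 FPKM in SAG and 9.397 in PF, a log2 ratio of -6.33. Col2a1, the type II collagen chain, was at 1750 FPKM in SAG and 31.4 in PF, with 1731 in GP and 35.4 in COR. The same order, with SAG and GP high and PF and COR low, held for Clec3a (113 FPKM in SAG and 0.770 in PF) and for Snorc, listed as 3110079O15Rik (389 and 6.77 FPKM). The 4 genes outside cartilage were Gadd45a, a growth arrest and DNA damage gene, at 91.2 FPKM in SAG and 0.957 in PF, Mab21l1 at 73.6 and 0.662 FPKM, Mlf1 at 57.3 and 0.471 FPKM, and the imprinted gene Nnat, neuronatin, at 1545 and 37.8 FPKM. COR and GP lay near PF for Nnat, at 26.6 and 17.9 FPKM.

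**Figure D3:**
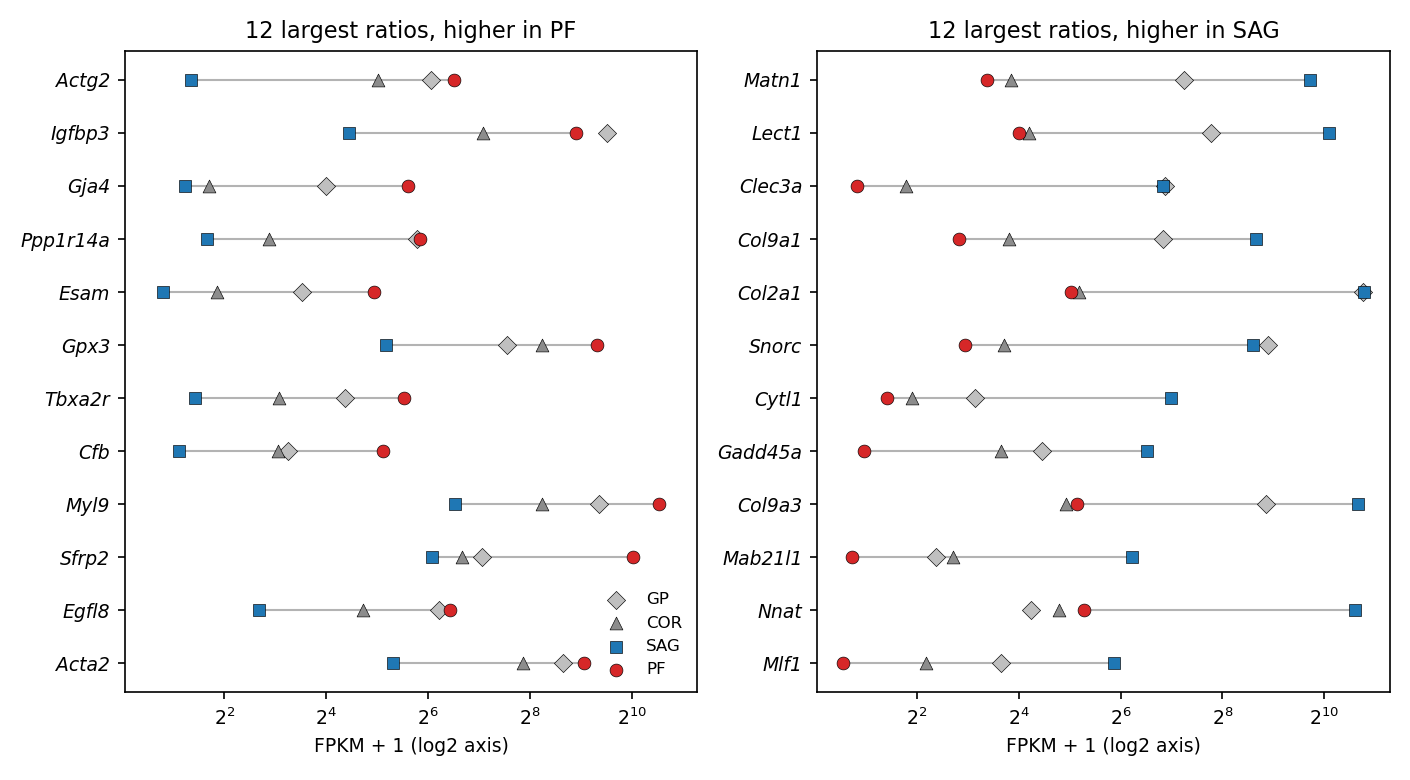
The 12 genes with the largest ratio in each direction, among protein-coding genes at 5 FPKM or more in the higher library, are plotted as FPKM + 1 on a log2 axis for the 4 libraries, 1 library each, with a grey line from PF to SAG. For Matn1 the SAG library is at 838 FPKM and PF at 9.397, and for Actg2 PF is at 90.3 and SAG at 1.56.

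The gene lists below were read against the share of all protein-coding genes that passed 3-fold, 6.11% higher in PF and 8.85% higher in SAG. A gene that reached 1 FPKM in 1 library only is more likely to pass 3-fold toward that library, so the counts were also made over members with 1 FPKM or more in both. By that count, 9 of 13 smooth muscle and pericyte genes, 14 of 28 osteoblast matrix genes and 17 of 41 tendon and fibrous tissue genes were higher in PF, against 4.49% of all genes. In SAG, 19 of 35 cartilage matrix genes and 16 of 23 immediate early genes were higher, against 4.25%. Some genes belong to several lists, so the counts of related lists are not independent. Beside the list medians stands the median of 0.016 over all protein-coding genes.

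**Figure D4:**
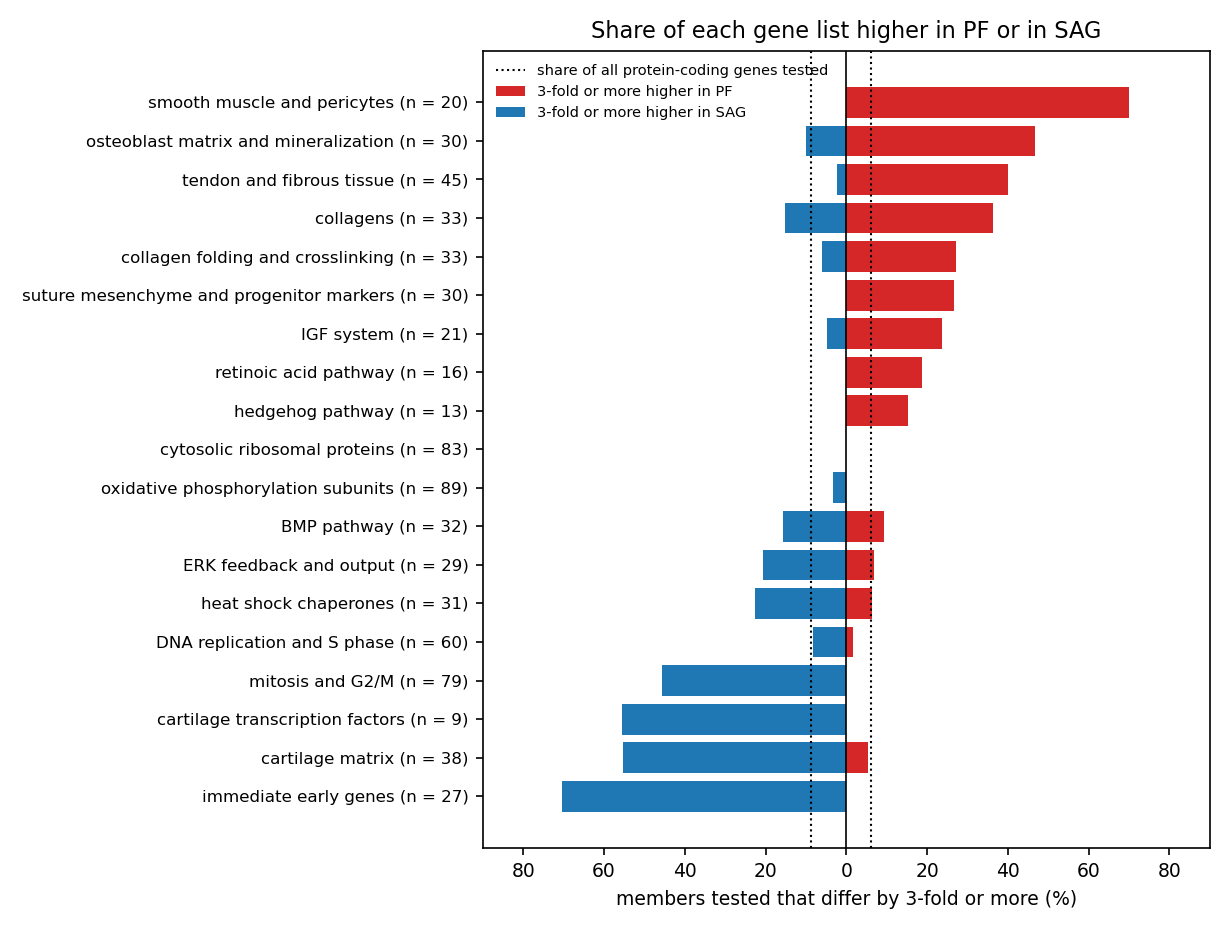
Bars give the percentage of tested members of each gene list that were 3-fold or more higher in PF (right, red) or in SAG (left, blue), and dotted lines mark the shares among all protein-coding genes tested, 6.11% and 8.85%. Smooth muscle and pericyte genes reach 70.0% on the PF side and immediate early genes 70.4% on the SAG side, while ribosomal protein genes have no bar.

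Genes of the bone matrix were mostly higher in PF. Of 30 osteoblast matrix and mineralization genes tested, 14 were 3-fold or more higher in PF and 3 in SAG, with a median log2 ratio of 1.496. Col1a1 and Col1a2, the chains of type I collagen, reached 4894 and 8161 FPKM in PF, compared with 606 and 1336 FPKM in SAG. Alpl, the alkaline phosphatase that frees phosphate for mineral, reached 461 FPKM in PF against 59.7 in SAG, with 645 in COR and 258 in GP. Bglap, osteocalcin, whose reads may be shared with the near-identical Bglap2, was at 426 FPKM in PF and 67.1 in SAG, and Ifitm5, a membrane protein of osteoblasts, at 141 and 9.68 FPKM. For all of these the SAG library was the lowest of those with a value, since Col1a1 and Col1a2 are listed at 0 in COR and Col1a2 also in GP, which for genes of this abundance are taken as failed estimates. The direction was not shared by the whole list. Ibsp, bone sialoprotein, was at 123 FPKM in PF and 104 in SAG, and the 3 members higher in SAG were Mmp13, the collagenase of hypertrophic cartilage and bone (28.9 and 346 FPKM), Omd, osteomodulin (7.10 and 37.3 FPKM), and the secreted kinase Fam20c (15.998 and 55.3 FPKM).

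Of 11 osteoblast transcription factors, 2 were higher in PF by 3-fold and 0 in SAG. Sp7, osterix, was at 33.8 FPKM in PF and 7.93 in SAG, and Dlx6, a homeobox gene, at 6.68 and 0.772 FPKM. Runx2, the master factor of the osteoblast lineage, was at 18.9 and 9.41 FPKM, under 3-fold. Outside that list, Vdr, the vitamin D receptor, was at 12.6 FPKM in PF and 1.74 in SAG. Pth1r, the receptor for parathyroid hormone, was at 106 and 37.0 FPKM, just under 3-fold, and is counted among the cartilage matrix genes below.

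Cartilage genes went the other way. Of 38 cartilage matrix genes tested, 21 were 3-fold or more higher in SAG and 2 in PF, with a median log2 ratio of -2.12, and of 9 cartilage transcription factors 5 were higher in SAG. Sox9, which drives chondrocyte differentiation, was at 172 FPKM in SAG, 21.3 in PF, 11.9 in COR and 60.8 in GP. Its partner Sox5 was at 13.3 FPKM in SAG and 3.46 in PF. All 3 type IX collagen chains were higher in SAG: Col9a1 at 404 FPKM against 6.15 in PF, Col9a2 at 541 against 45.8, and Col9a3 at 1627 against 34.2. Comp, cartilage oligomeric matrix protein, was at 300 FPKM in SAG and 12.3 in PF, and Ucma, a marker of the upper growth plate zone, at 106 and 9.03 FPKM. The abundant proteoglycan and leucine-rich members did not share the difference. Acan, aggrecan, was at 23.3 FPKM in PF and 25.9 in SAG, and Chad, chondroadherin, at 223 and 220 FPKM. Col10a1, the collagen of hypertrophic chondrocytes, was at 1.44 FPKM in PF and 0.813 in SAG, against 600 in GP. Otor (10.5 and 1.55 FPKM) and Cilp2 (82.5 and 12.3 FPKM) were the 2 members higher in PF.

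The fibrous matrix was higher in PF. Of 45 tendon and fibrous tissue genes, 18 were higher in PF and 1 in SAG, with a median log2 ratio of 1.42. Dcn, the collagen-binding proteoglycan decorin, was at 2503 FPKM in PF and 496 in SAG, Eln, elastin, at 508 and 88.2 FPKM, and Mfap4, a microfibril protein, at 2641 and 435 FPKM. Scx, scleraxis, the transcription factor of tendon progenitors, was at 60.2 FPKM in PF and 11.3 in SAG. The exception, Egr1, a zinc finger factor on that list, was at 63.5 FPKM in PF and 1279 in SAG and also belongs to the immediate early genes described below. Among 33 collagen chains 12 were higher in PF and 5 in SAG, but after GC correction the counts were 6 and 7. The division followed the collagen type: chains of types I, III, IV and V were among those higher in PF, and the 5 higher in SAG were Col2a1, the 3 type IX chains and Col11a2 (124 FPKM in SAG and 16.2 in PF), the chains of cartilage fibrils. Enzymes that fold and crosslink collagen followed the fibrous chains, with 9 of 33 higher in PF and 2 in SAG, or 5 and 3 after GC correction. Adamts2, which trims the amino end of procollagen, was at 137 FPKM in PF and 17.4 in SAG, Pcolce, which aids trimming of the other end, at 1920 and 298 FPKM, and Lox, lysyl oxidase, at 191 and 49.1 FPKM.

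Matrix-degrading enzymes had members on both sides. Of 37 matrix proteases and inhibitors, 5 were higher in PF (13.5%) and 3 in SAG (8.11%, near the 8.85% of all genes). The abundant gelatinase Mmp9 was at 301 FPKM in SAG and 10.2 in PF, with 154 in GP and 29.9 in COR. Mmp23 was at 221 FPKM in PF and 25.5 in SAG.

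Contractile genes showed the highest share of any list on the PF side. Of 20 smooth muscle and pericyte genes tested, 14 were higher in PF (70.0%) and 0 in SAG, with a median log2 ratio of 2.38. Acta2, smooth muscle alpha actin, reached 530 FPKM in PF against 38.9 in SAG, with 232 in COR and 400 in GP. Myl9, a myosin light chain, had 1474, 91.7, 298 and 657 FPKM in these libraries, and Tagln, the actin-binding transgelin, at 221, 15.9, 65.4 and 139 FPKM. For these genes SAG was the lowest library and PF the highest. Genes that mark vascular smooth muscle and pericytes were lower in level but had the same direction: Myh11, smooth muscle myosin, was at 17.3 FPKM in PF and 0.425 in SAG, Des, desmin, at 9.81 and 0.0782 FPKM, Rgs5, a pericyte gene, at 7.50 and 0.614 FPKM, and Mcam, CD146, at 29.7 and 2.28 FPKM. The list's summed level was 3869 FPKM in PF against 583 in SAG, with 2027 in COR and 2752 in GP, and 1 of 22 members was at 0 in PF and 0 in SAG. In such pooled cells a smaller number of cells of a type and less RNA in each cannot be told apart.

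Members of the smooth muscle list are often controlled through the CArG box, which binds serum response factor, so the promoters were searched for it. Actg2, Myh11, Ndufa4l2, Pdgfrb and Tagln had no RefSeq promoter on file and could not be searched. In RefSeq promoters (GRCm38.p6, 250 bases before to 50 after the start, both strands), 1 of the 15 members with a promoter on file held the box, against 1.60% of 9704 promoters of tested genes. That member was Myl9, and the box stands 161 bases before its start. The 250 bases before the start (chr2:156775214-156775463, plus strand) are shown because they carry this match to the most abundant of the 12 genes with the largest ratio, with the box in capitals.
Myl9: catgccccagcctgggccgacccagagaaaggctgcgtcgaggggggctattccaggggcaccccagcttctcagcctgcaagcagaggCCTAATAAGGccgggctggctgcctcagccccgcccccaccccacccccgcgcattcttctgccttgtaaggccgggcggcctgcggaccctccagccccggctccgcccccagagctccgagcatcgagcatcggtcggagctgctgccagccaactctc
The match describes these letters only and is no measure of binding.

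Progenitor and perivascular markers also leaned to PF. Of 30 suture mesenchyme and progenitor genes 8 were higher in PF and 0 in SAG, with a median log2 ratio of 0.86. Cxcl12, a chemokine of stromal progenitors, was at 773 FPKM in PF and 210 in SAG. Gli1, a transcription factor and target of hedgehog signalling that marks suture mesenchyme, was at 7.86 and 0.668 FPKM. Pdgfrb, a growth factor receptor of perivascular cells, was at 48.3 and 13.8 FPKM, and Twist2, a helix-loop-helix factor of mesenchyme, at 27.1 and 5.43 FPKM. Acta2, Mcam and Pdgfrb are counted here as well as in the smooth muscle list. Prrx1, a general marker of calvarial mesenchyme, was at 40.1 FPKM in PF and 31.003 in SAG, and Postn, periostin, at 166 and 191 FPKM.

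Some signalling pathways had more members higher in PF, and others had similar numbers on both sides. In the insulin-like growth factor system 5 of 21 genes were higher in PF and 1 in SAG. The 5 were binding proteins, Igfbp2 (1828 and 542 FPKM), Igfbp3, Igfbp4 (2464 and 728 FPKM), Igfbp5 (102 and 26.2 FPKM) and Igfbp6 (168 and 22.5 FPKM), and the gene higher in SAG was Irs2, an adaptor of the insulin receptor, at 34.5 FPKM against 8.53 in PF. In the retinoic acid pathway 3 of 16 genes were higher in PF. They were the synthetic enzyme Aldh1a2, at 62.1 FPKM in PF against 7.09 in SAG and no more than 1.66 in COR or GP, and the carrier proteins Crabp1 (14.8 and 3.40 FPKM) and Crabp2 (67.7 and 11.0 FPKM). In the hedgehog pathway 2 of 13 were higher in PF, Gli1 and the ligand Dhh (15.5 and 1.43 FPKM), with a list median of 1.39. FGF ligands and receptors had 2 of 19 members higher in PF (10.5%) and 1 in SAG (5.26%), near the shares over all genes. Fgf18, a ligand of the osteogenic fronts, was at 24.4 FPKM in PF and 4.61 in SAG, and Fgfr3, a receptor of chondrocytes, at 13.5 and 48.6 FPKM.

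BMP signalling had members on both sides, with 3 of 32 higher in PF and 5 in SAG, or 2 and 9 after GC correction. Those higher in PF were the extracellular antagonists Chrd (12.1 and 2.61 FPKM), Fst (7.21 and 0.724 FPKM) and Fstl3 (34.9 and 4.46 FPKM). Those higher in SAG were the ligands Gdf5, a factor of joint cartilage (48.2 FPKM in SAG and 0.290 in PF), Bmp2 (36.1 and 7.79 FPKM) and Bmp7 (35.6 and 8.98 FPKM), and the inhibitory helix-loop-helix targets Id1 (320 and 94.5 FPKM) and Id4 (257 and 9.92 FPKM). The median of the list, -0.43, became positive when values were taken relative to Gapdh. In Notch signalling, Heyl, a target expressed in vascular smooth muscle (21.5 FPKM in PF and 1.92 in SAG), Nrarp, a feedback inhibitor (13.8 and 2.08 FPKM), and the ligand Dll4 (2.56 and 0.0553 FPKM) were higher in PF. Hes5, Dll1 and Dll3, a target and ligands of neural tissue, were higher in SAG, at 9.42, 2.496 and 7.68 FPKM, with Hes5 listed at 0 in PF. Among the 11 Notch genes at 1 FPKM or more in both libraries, 2 were higher in PF and 0 in SAG. Of 35 Wnt antagonists and receptors 3 were higher in each library (8.57%), near the shares over all genes. Fzd2 (58.2 and 13.7 FPKM) and the R-spondin receptor Lgr5 (10.8 and 0.987 FPKM) were higher in PF, and Fzd9 (48.2 and 161 FPKM) was higher in SAG.

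The highest share of any list on the SAG side was that of the immediate early genes, which are transcribed within minutes of a stimulus. Of 27 tested, 19 were higher in SAG (70.4%) and 0 in PF, with a median log2 ratio of -3.24. Fos, a subunit of the AP-1 transcription factor, was at 2298 FPKM in SAG, 115 in PF, 124 in COR and 327 in GP. Its partner Junb had 1553, 119, 109 and 268 FPKM in these libraries, and Egr1 1279, 63.5, 94.98 and 145 FPKM. The SAG library stood apart from all 3 others for these genes, whose summed level over the list was 11882 FPKM in SAG against 1181 in PF, 1466 in COR and 2485 in GP. Negative regulators of the same early response had the same order: Zfp36, which destabilizes cytokine messages, was at 914 FPKM in SAG and 47.8 in PF, and Dusp1, a MAP kinase phosphatase, at 483 and 41.7 FPKM. Atf3, a stress-induced factor, was at 213 and 6.54 FPKM. Among 29 genes of ERK feedback and output, 6 were higher in SAG and 2 in PF, and the list median of -0.30 turned positive relative to Gapdh. They included Dusp1, Dusp5 (6.37 FPKM in SAG and 0.124 in PF), Phlda1 (64.4 and 9.21 FPKM) and the ETS factor Etv5 (11.8 and 1.90 FPKM), while Ccnd1, cyclin D1, was at 17.3 FPKM in PF and 4.37 in SAG.

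Early genes are controlled through the CArG box and through the cyclic AMP response element, whose letters are TGACGTCA. Egr1, Ier2 and Myc had no RefSeq promoter on file and could not be searched. Of the 24 members with a RefSeq promoter, 3 held a CArG box (12.5%, against 1.60% of all promoters searched) and 4 the TGACGTCA letters (16.7% against 3.65%). The 3 with the box were Egr2, Zfp36 and Srf, which encodes the factor that binds it. Egr2, at 39.2 FPKM in SAG and 0.402 in PF, had the largest log2 ratio of the list, -4.84. The promoters of Egr2 (chr10:67537619-67537868, plus strand) and Zfp36 (chr7:28379229-28379478, minus strand) are shown because both genes were at least 3-fold higher in SAG, with the box in capitals 72 and 58 bases before the start.
Egr2: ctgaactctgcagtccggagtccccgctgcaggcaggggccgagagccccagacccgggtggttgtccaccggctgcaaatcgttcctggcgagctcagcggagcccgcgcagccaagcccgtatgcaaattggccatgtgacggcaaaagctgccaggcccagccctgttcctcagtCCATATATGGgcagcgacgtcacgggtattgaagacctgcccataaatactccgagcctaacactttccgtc
Zfp36: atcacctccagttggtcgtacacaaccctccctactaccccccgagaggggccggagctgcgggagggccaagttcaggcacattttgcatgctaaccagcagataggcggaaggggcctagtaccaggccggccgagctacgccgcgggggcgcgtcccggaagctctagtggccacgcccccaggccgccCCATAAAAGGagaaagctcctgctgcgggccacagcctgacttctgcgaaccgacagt
The same box therefore occurs in Myl9, higher in PF, and in these early genes, higher in SAG.

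Other stress and metabolic genes differed less often than the early genes. Of 31 heat shock chaperones 7 were higher in SAG and 2 in PF. The inducible chaperones Hspa1a and Hspa1b, near-identical copies whose reads may be divided between them, were at 101 and 109 FPKM in SAG and at 6.44 and 7.82 FPKM in PF. Dnajb1, their cofactor, was at 451 and 60.9 FPKM. Of 42 hypoxia and glycolysis genes 5 were higher in SAG (11.9%, near the 8.85% of all genes) and 1 in PF. Their median of -0.50 became 0.011 relative to Gapdh, which is itself a glycolytic enzyme. The glucose transporter Slc2a1 was at 107 FPKM in SAG and 4.28 in PF. Adm, adrenomedullin, was the 1 gene of that list higher in PF, at 28.4 and 6.28 FPKM. Of the chemokine, cytokine and acute phase genes 8 of 20 were higher in PF and 5 in SAG. Among the 13 of them at 1 FPKM or more in both libraries, 6 were higher in PF and 1 in SAG. Ccl2, a monocyte attractant, was at 17.1 FPKM in PF and 1.17 in SAG, whereas Cxcl1, a neutrophil attractant, was at 49.8 FPKM in SAG and 0.485 in PF, and Socs3, a feedback inhibitor of cytokine receptors, at 292 and 24.3 FPKM.

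Genes of mitosis had their lowest summed level in PF. Of 79 mitosis and G2/M genes tested, 36 were higher in SAG (45.6%) and 0 in PF, 77 had a ratio below 0, and the median log2 ratio was -1.52. Ccnb1, cyclin B1, was at 24.9 FPKM in SAG and 2.14 in PF, with 21.97 in COR and 15.2 in GP. Cdk1, the kinase it activates, was at 21.8, 5.50, 11.7 and 22.6 FPKM in the order SAG, PF, COR and GP. Kif11, the spindle motor, was at 4.54, 0.145, 3.42 and 3.25 FPKM in that order, and Mki67, the proliferation marker Ki-67, at 3.40, 0.384, 3.91 and 3.29 FPKM. The list's summed level was 616 FPKM in PF against 1519 in SAG, 1437 in COR and 1300 in GP, so that PF stood apart and SAG did not. Many of these levels were low: 54 of the 79 reached 1 FPKM in PF, against 79 in SAG, and of the 54 genes with 1 FPKM or more in both libraries 16 were higher in SAG. S phase genes differed less. Of 60 DNA replication genes 5 were higher in SAG (8.33%, near the 8.85% of all genes) and 1 in PF. The list median of -0.47 became 0.035 relative to Gapdh. Pcna, the replication clamp, was at 20.2 FPKM in PF and 55.2 in SAG, under 3-fold. Inhibitors of the cell cycle were on both sides: Cdkn1c, p57, was at 3198 FPKM in PF and 961 in SAG, and Cdkn1a, p21, at 37.7 and 160 FPKM.

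Mitosis genes share promoter elements that the choice by level did not use, the cell cycle genes homology region (CHR, letters TTTGAA or TTCGAA) and CCAAT boxes. The CHR letters stood in 45 of the 62 members with a RefSeq promoter (72.6%), against 16.2% of 9704 promoters, and the CCAAT letters also in 45 of 62, against 43.1%. In S phase genes, 22 of 49 promoters (44.9%) held letters of the E2F site, TTTCCCGC, TTTGGCGC, TTTCGCGC or TTTGCCGC, against 4.59%. Of the 45 mitosis genes with CHR letters 19 were at least 3-fold higher in SAG, with a median log2 ratio of -1.38, and of the 17 without them 11 were, with a median of -1.82. The 250 bases before the start of Kif11 (chr19:37376132-37376381, plus strand), Ncapg (chr5:45669675-45669924, plus strand) and Cdk1 (chr10:69352913-69353162, minus strand) are shown because each gene was at least 3-fold higher in SAG and carries both elements, which are in capitals on either strand.
Kif11: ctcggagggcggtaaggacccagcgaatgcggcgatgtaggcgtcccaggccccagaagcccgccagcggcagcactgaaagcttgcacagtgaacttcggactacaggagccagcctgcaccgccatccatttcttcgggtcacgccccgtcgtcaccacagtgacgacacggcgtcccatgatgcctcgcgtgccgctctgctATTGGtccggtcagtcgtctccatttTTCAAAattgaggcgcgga
Ncapg: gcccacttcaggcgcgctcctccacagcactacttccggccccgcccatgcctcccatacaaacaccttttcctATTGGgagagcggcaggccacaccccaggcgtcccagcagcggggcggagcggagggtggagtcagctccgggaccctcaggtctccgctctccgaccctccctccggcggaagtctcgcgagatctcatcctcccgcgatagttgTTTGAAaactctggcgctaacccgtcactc
Cdk1: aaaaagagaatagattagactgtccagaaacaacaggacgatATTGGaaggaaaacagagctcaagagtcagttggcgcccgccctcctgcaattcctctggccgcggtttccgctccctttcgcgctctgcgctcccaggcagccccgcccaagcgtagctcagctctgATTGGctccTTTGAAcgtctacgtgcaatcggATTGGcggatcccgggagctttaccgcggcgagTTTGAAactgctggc
The CHR letters nearest the start begin 19 bases before it in Kif11, 30 in Ncapg and 15 in Cdk1. Ncapg, a condensin subunit, was at 7.31 FPKM in SAG and 0.104 in PF.

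Few members of most housekeeping families passed 3-fold. Of 83 cytosolic ribosomal protein genes 0 passed 3-fold, with a median log2 ratio of 0.30 that fell to -0.034 after quantile normalization. Of 89 oxidative phosphorylation subunits 3 were higher in SAG, with a median of 0.34. Of 77 mitochondrial ribosomal protein genes 1 was higher in SAG, of 38 proteasome genes 1 was higher in PF, and of 28 unfolded protein response genes 1 was higher in SAG. Spliceosome genes (4 of 80), primary cilium genes (3 of 45) and polycomb and chromatin genes (3 of 48) each had a few members higher in SAG and 0 in PF, all below the background share of 8.85%. After GC correction 2 spliceosome genes were higher in SAG and 1 in PF, and 1 primary cilium gene was higher in SAG. Of 311 C2H2 zinc finger genes named Zfp, 30 were higher in SAG (9.65%) and 3 in PF (0.965%), or 23 and 6 after GC correction, with a median of -0.36 that turned positive relative to Gapdh. The share higher in SAG was near the background of 8.85%, and of the 231 members at 1 FPKM or more in both libraries 4 were higher in SAG and 2 in PF. The zinc finger genes had a median transcript GC content of 46.0%, on the side of the composition where ratios were lower. Their median log2 ratio after GC correction was -0.23. The part of base composition in these ratios was not tested.

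Genes of brain epithelia were highest in the SAG library. Of 20 choroid plexus genes tested 10 were higher in SAG and 0 in PF, and the summed level of the 23 genes on that list was 5796 FPKM in SAG, 879 in PF, 346 in COR and 300 in GP. Ttr, the secreted carrier transthyretin, made up most of the SAG sum, and without it the 22 other genes summed to 692 FPKM in SAG, 414 in PF, 205 in COR and 290 in GP. Of the 13 members with 1 FPKM or more in both sutures 7 were higher in SAG. The transport genes Folr1 (33.7 FPKM in SAG and 1.08 in PF) and Kcnj13 (23.3 and 3.64 FPKM) were among them. Of 14 pineal and photoreceptor-like genes 9 were higher in SAG and 1 in PF, and of the 7 at 1 FPKM or more in both, 5 and 1. Crx, the photoreceptor and pineal homeobox factor, was at 18.9 FPKM in SAG and 0.0980 in PF, and Tph1, which starts melatonin synthesis, at 50.7 and 4.27 FPKM. Genes of motile cilia had the same direction, with 12 of 25 higher in SAG and 1 in PF, but most of these genes reached 1 FPKM in SAG only. Of the 8 at 1 FPKM or more in both, 1 was higher in SAG, Rsph1, a radial spoke protein, at 36.7 and 1.62 FPKM. Foxj1, which directs the ciliary programme, was at 3.99 FPKM in SAG and 0.418 in PF. PF was second to SAG for the summed level of each of these 3 lists. The defining genes of these tissues were therefore present in a sort meant for skeletal cells, and their part in the other SAG ratios was not tested.

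Further lists of other cell types divided between the sutures. Schwann cell and oligodendrocyte genes were higher in PF at 8 of 13 and in SAG at 2, and Mbp, myelin basic protein, was at 88.1 FPKM in PF and 12.2 in SAG. Other members were below 1 FPKM in both sutures and were not tested. Cdh19 was at 0.0343 FPKM in PF and 0.641 in SAG, Mag at 0.429 and 0.936, and Erbb3 at 0.158 and 0.197. Mog and Mobp were at or near 0. The summed level of this list was 817 FPKM in GP, 727 in PF, 487 in SAG and 319 in COR, so PF was not the highest library. Meningeal genes were on both sides, 6 of 28 higher in PF and 5 in SAG: Aldh1a2 was higher in PF with a log2 ratio of 2.97, Foxc2, a forkhead factor, was at 44.7 FPKM in PF and 15.3 in SAG, under 3-fold, and Ptgds, prostaglandin D synthase, was at 91.3 FPKM in SAG and 12.7 in PF. Of 11 endothelial genes tested 1 was higher in each library (9.09%, near the shares over all genes). They were Esam in PF and Kdr, a receptor for VEGF, in SAG (14.9 and 2.12 FPKM). Leukocyte genes were scarce, with a summed level of 42.0 FPKM in PF and 28.4 in SAG and with 12 and 14 of 30 members listed at 0. Enpep and Eng, the genes of the negative sort antigens 6C3 and CD105, had 7.05 and 1.70 FPKM in PF, compared with 2.74 and 0.760 FPKM in SAG. The genes of CD45, Thy1 and Tie2 were below 1 FPKM in both sutures. Ptprc (CD45) was at 0.568 FPKM in PF and 0.00475 in SAG, and Thy1 at 0.178 and 0.0283. Tek (Tie2) had the other direction, at 0.131 FPKM in PF and 0.627 in SAG.

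**Figure D5:**
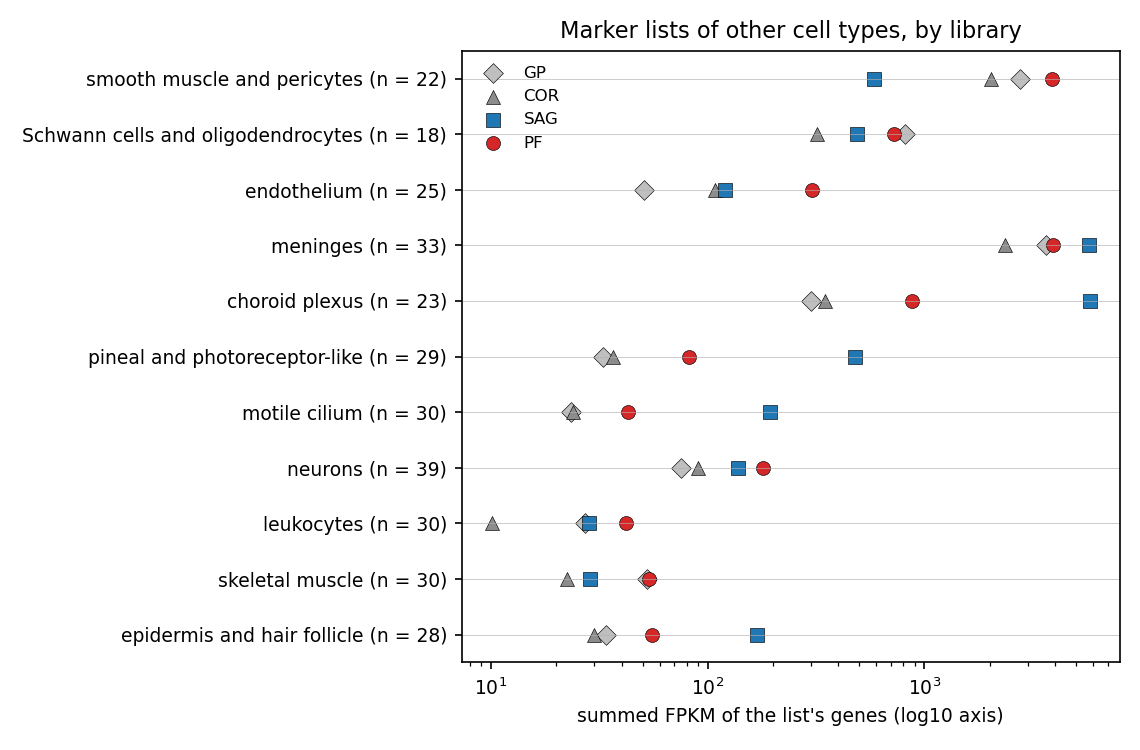
The summed FPKM of marker lists for cell types other than skeletal cells is plotted on a log10 axis for the 4 libraries, 1 library each, with the number of genes on each list. SAG is highest for choroid plexus (5796 FPKM against 879 in PF, or 692 against 414 without Ttr), pineal and motile cilium genes, and PF is highest for smooth muscle genes (3869 FPKM against 583 in SAG).

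Transcription factors that pattern the head differed gene by gene. Of 37 tested, 4 were higher in PF and 5 in SAG, and after GC correction 1 and 5. With 1 FPKM or more in both libraries, 1 of 27 members was higher in PF and 2 in SAG. Tfap2b, a neural crest factor, was at 8.69 FPKM in PF and 0.676 in SAG, with 0.441 in COR and 0.243 in GP. PF was the highest library for this gene. Pax3 was at 11.4 FPKM in SAG and below 0.2 in the others, Otx1 at 12.2 and 0.0231 FPKM in SAG and PF, and Zic4 at 42.5 and 9.55 FPKM. Six2, a mesenchymal factor, was at 191 FPKM in PF and 77.04 in SAG, under 3-fold, and at 96.5 in COR and 2.94 in GP.

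Olfactory receptor genes were listed more often in the PF library. Of 1117 olfactory receptor genes, 99 reached 1 FPKM in PF, 2 in GP and 0 in SAG or COR, and 23 of 331 vomeronasal receptors reached it in PF and 0 in the other 3 libraries. The highest olfactory receptor level in PF was 8.68 FPKM. Any level above 0 was listed for 174 olfactory receptors in PF, 56 in SAG, 27 in GP and 13 in COR. Together with taste receptors these genes made 77 of the 783 protein-coding genes higher in PF (9.83%), and 706 remained without them. The families were singled out once their values were known. By the depth estimate above, the olfactory receptors at 1 FPKM or more in PF stood for a median of 41.1 fragments each.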

How the data were processed

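The authors made paired-end libraries from total RNA amplified with an ultra-low-input cDNA kit, mapped reads to mouse mm9 with STAR 2.5.1b and ran Cuffdiff of Cufflinks 2.2.1 (versions per the submitters' processing notes). The files they deposited hold FPKM by gene symbol for 1 library each of PF, SAG, COR and GP, and their library scaling is not given in the sources used here. Here log2(FPKM + 1) of PF minus SAG was computed for symbols at 1 FPKM or more in either library, and 3-fold or more was counted, without a test. Biotypes and mm9 positions were matched by symbol to GENCODE and otherwise RefSeq, and 83 symbols matched neither. GC content of the longest coding transcript was known for 94.3% of coding genes and corrected by lowess (span 0.3). Depth assumes FPKM proportional to fragments. The comparison and the 73 gene lists were chosen with earlier results of these data known. Named genes were the 12 largest ratios at 5 FPKM or more and the 8 largest at 50 or more in each direction, the 5 highest in each library, sort markers, Gapdh, Actb, and in each list the members with the largest ratios or a role that orders the account. CArG, TGACGTCA and CCAAT searches and the receptor families were added after the data were seen. Alternatives were other pseudocounts, filters, thresholds and scalings. Promoters were RefSeq GRCm38.p6. The steps were first tested on simulated data. Python 3.11.15, numpy 2.4.6, pandas 2.3.3 and statsmodels 0.14.6 were used.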

Additional observations from a re-analysis of the deposited data

How the results depend on the processing

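The counts of different, higher-in-PF and higher-in-SAG genes were 4294, 1953 and 2341 at a 2-fold threshold, 3312, 1391 and 1921 with a pseudocount of 0.1, and 900, 462 and 438 with 1 FPKM or more in both libraries. Relative to Gapdh, 1480 genes were higher in PF. The other 23 alternative counts were within 1.5 times. With all genes at 5 FPKM or more in both libraries, the median log2 ratio was 0.12, and Gapdh was at -0.53, so these scalings shift the ratios of abundant genes by about that much and those of low genes by less. Of 20 gene lists with a median of 1 or more in size, 1 changed sign: epidermis and hair follicle, from -1.23 to 0.099 at 5 FPKM or more in either library and to 0.13 at 1 FPKM or more in both. Of 53 lists with smaller medians 25 changed sign under some alternative. The cause was not tested. Without receptor families, added after the data were seen, 1841 genes differed. No paired analysis was possible because each suture has 1 library, and no replicate could be left out.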

Other observations

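Several abundant genes outside the lists above also differed. Among those higher in PF, Cpz, a carboxypeptidase that binds Wnt proteins, was at 734 FPKM in PF and 68.5 in SAG, Cd248, a stromal and pericyte surface protein, at 369 and 45.4 FPKM, and Apod, a lipid-binding lipocalin, at 242 and 20.9 FPKM. Serping1, an inhibitor of the first complement component, was also higher in PF, at 329 and 40.6 FPKM. Among those higher in SAG, Gdf15, a stress-induced ligand, was at 35.6 FPKM in SAG and 0.0695 in PF, Clu, the extracellular chaperone clusterin, at 604 and 60.8 FPKM, and Esm1, endocan, at 346 and 22.7 FPKM. Neural and retinal genes were listed there as well, with Neurod4, a neurogenic factor, at 140 FPKM in SAG and 3.35 in PF, Rlbp1, a retinal carrier, at 36.3 and 0.390 FPKM, and Lhx9, a homeobox factor, at 60.3 and 2.11 FPKM. These genes were chosen after their values were seen.

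Among the 5 most abundant transcripts of each suture library, the type I collagens described above and Ttr passed 3-fold and the others did not. Sparc, osteonectin, was the highest in PF at 9849 FPKM and at 3723 in SAG, and is listed at 0 in COR. Cst3, the protease inhibitor cystatin C, was at 3432 and 3525 FPKM, Mgp, matrix Gla protein, at 2289 and 3311 FPKM, and Ftl1, ferritin light chain, at 4285 and 3266 FPKM. Gnas, a G protein subunit, was at 4271 and 1639 FPKM, and Actb, beta actin, at 1439 and 866 FPKM. Ttr, transthyretin of the choroid plexus, was the highest in SAG at 5103 FPKM, with 465 in PF.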
